A study of Macaca nemestrina with 15 samples.

Results

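*CHIT1* and *TCN2* are 2 of the 28865 features in a table of reads counted on genes in peripheral blood mononuclear cells (PBMCs), the lymphocytes and monocytes of blood. They were chosen by their measured difference between week 18 and pre-treatment, as the 2 genes that the study listed as higher after treatment, so that difference is described here and not tested. The animals were 5 female pig-tailed macaques (*Macaca nemestrina*), dosed by gavage under anesthesia with islatravir (ISL), a nucleoside inhibitor of the HIV reverse transcriptase, at 30 mg/kg once a week for 12 weeks. Blood was taken from each of the 5 animals before the first dose (pre-treatment), at week 12 of dosing and at week 18, stated as 6 weeks after the last dose, which gave 15 libraries in 3 groups of 5. A figure legend of the study gives an earlier week and a shorter time since the last dose for the last sample, so that time is not settled. All 3 groups are the same animals, none was left untreated, and neither strain nor age is given for them in the sources used here, so the time point and the treatment cannot be told apart.

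*CHIT1* encodes chitotriosidase, an enzyme that cleaves chitin, the polymer of fungal walls and insect and worm coats. It is secreted by activated macrophages and stored in neutrophil granules, and its activity in plasma is known as a marker of lipid-laden macrophages in Gaucher disease. *TCN2* encodes transcobalamin, the plasma protein that binds cobalamin (a B vitamin) and delivers it to cells through the receptor CD320, after which cobalamin serves the enzymes methionine synthase and methylmalonyl-CoA mutase. Monocytes circulate in the PBMC fraction and become macrophages in tissue, and CD14, a co-receptor for bacterial lipopolysaccharide, and CD163, a scavenger receptor for haemoglobin, are their usual surface markers. In RNA from mixed cells, fewer cells of a type and less RNA per cell cannot be told apart.

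The libraries held 5610597 to 10379572 reads on genes (median 8871860). The shallowest 2 libraries were those of animal Z15303 at week 12 and week 18. Levels are given in CPM, the reads of a gene relative to its library's size as scaled by edgeR's TMM method, and 12880 features were tested after its filter on low counts. Without the animal as a block, edgeR's quasi-likelihood test called 0 features in each of the 3 comparisons at an adjusted p of 0.05, and 207 (1.61%), 218 (1.69%) and 65 (0.505%) features had an unadjusted p under 0.05 at week 12, at week 18 (each against pre-treatment) and between the later 2 times. With the animal as a block it called 1 (0.00776%), 1 (0.00776%) and 0 features, all lower. DESeq2's Wald test with that block called 23 (0.179% lower, 0 higher), 51 (0.227% lower, 0.0193% higher) and 8 (0.0338% lower, 0.00482% higher). DESeq2 was run without edgeR's filter, and its shares are of the 12859, 20732 and 20732 features to which it gave an adjusted p. Without the block DESeq2 called 1, 0 and 0. Among the 5 animals, Z15339, Z15303 and Z15408 carry the same dates in their library names, and Z15228 and Z13076 have dates of their own. The labels do not say what these dates record. Read as sampling dates, they would place the second sample 56 or 57 days and the third 84 days after the first. The labels name these samples week 12 and week 18, and the names of the labels are used.

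*CHIT1* was a low gene before treatment. It had 102, 27, 24, 40 and 9 reads in animals Z15228, Z13076, Z15339, Z15303 and Z15408, which are 10.5, 3.05, 2.87, 4.44 and 1.03 CPM. One animal, Z15228, stood above the rest, and the 9 reads of Z15408 carry a counting interval of 4.12 to 17.1 reads (exact Poisson, 95%). At week 12 the same animals had 10.4, 2.77, 4.42, 7.38 and 3.11 CPM, from 100, 23, 40, 40 and 31 reads. At week 18 they had 25.1, 10.1, 6.61, 6.56 and 4.54 CPM, from 194, 83, 59, 37 and 41 reads. The means were 4.37 ± 3.62 (SD, n = 5), 5.61 ± 3.23 and 10.6 ± 8.37 CPM in the order of sampling, so the groups overlapped widely at every time while each animal was higher at week 18 than before treatment. In Z15303 the count itself was slightly lower at week 18 (37 vs. 40 reads), and its higher CPM comes from a smaller library.

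*TCN2* was read more deeply, with 124 to 963 reads per library. Its levels before treatment were 26.8, 67.9, 21.5, 20.5 and 25.3 CPM in the same order of animals, from 261, 602, 180, 185 and 222 reads. At week 12 they were 25.6, 51.1, 29.3, 22.9 and 37.5 CPM, from 247, 424, 265, 124 and 374 reads. Animal Z13076 was the highest at both times and the other 4 lay close together before treatment. At week 18 the levels were 39.0, 118, 39.9, 31.6 and 40.2 CPM, from 301, 963, 356, 178 and 363 reads. The means were 32.4 ± 20.0 (SD, n = 5), 33.3 ± 11.4 and 53.6 ± 35.9 CPM, with the SD at week 18 set mostly by Z13076, which was again the highest. Across the table, the mean level of *CHIT1* over the 15 libraries lay at percentile 24.3 of the tested features and that of *TCN2* at percentile 62.1, on a CPM scale that is not corrected for transcript length.

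**Figure D1:**
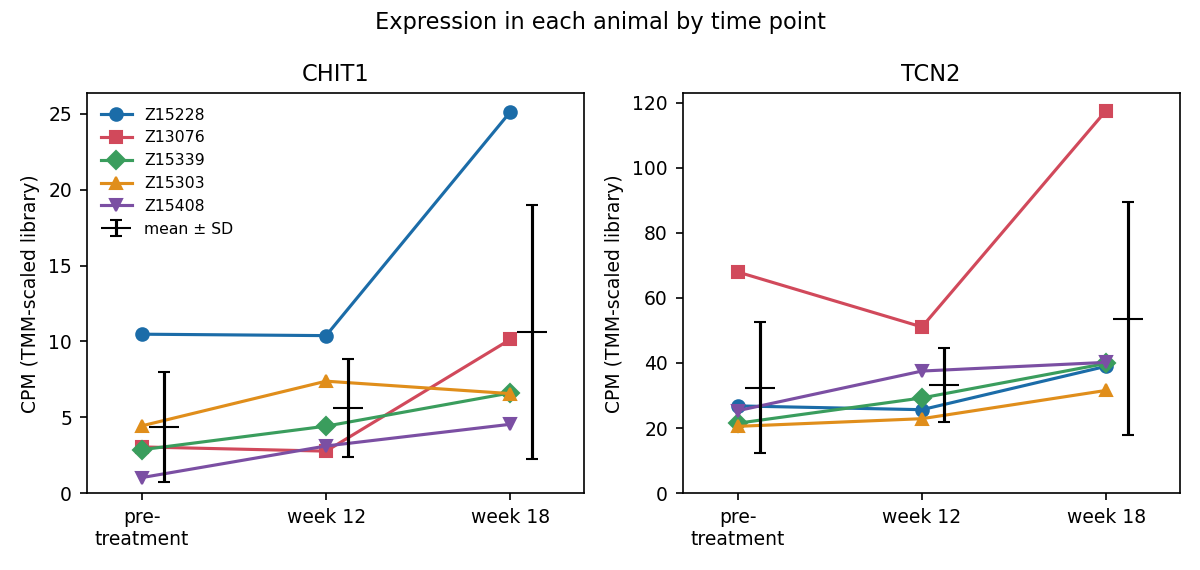
CPM of *CHIT1* (left) and *TCN2* (right) in each of the 5 animals before treatment, at week 12 and at week 18, with one line per animal and black bars for the mean ± SD of the 5 animals. Z15228 is the highest animal for *CHIT1* and Z13076 for *TCN2* at all 3 times, and all 5 lines end above their start in both panels.

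The animals differed from each other more than the libraries of 1 animal did once the time point was taken out. On the log2 CPM scale, the SD between the animals' means was 0.87 for *CHIT1* and 0.62 for *TCN2*, while the SD within animals left after removing the time point was 0.45 and 0.24. The highest animal lay 5.23-fold above the lowest for *CHIT1* and 3.0-fold for *TCN2*, by the geometric mean of its 3 libraries. The monocyte markers varied less between animals, by 2.23-fold for *CD14* and 1.70-fold for *CD163*. The 2 genes did not rank the animals alike, since Z15228 led for *CHIT1* and Z13076 for *TCN2*.

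Measured within each animal, *CHIT1* was higher at week 18 than before treatment in 5 of 5 animals, by 1.24, 1.66, 1.14, 0.54 and 1.92 on the log2 CPM scale (mean 1.30 ± 0.53, SD, n = 5). The values for *TCN2* were 0.54, 0.79, 0.88, 0.62 and 0.66 (mean 0.70 ± 0.14, SD, n = 5), also higher in 5 of 5 animals. Among all tested features, 3.04% were higher in 5 of 5 animals in this comparison, and nothing is read from the 2 genes against that share because the comparison chose them. *CHIT1* thus had the larger difference and *TCN2* the more even one, with all 5 animals between 0.54 and 0.88. As folds, *CHIT1* ran from 1.48 in Z15303 to 4.42 in Z15408, and the counting interval was above 1 in 4 of the 5 animals, with 0.919 to 2.37 in Z15303. The folds of *TCN2* ran from 1.45 in Z15228 to 1.85 in Z15339, with intervals above 1 in all 5 animals. These intervals cover counting error only, and the libraries were amplified without molecular identifiers.

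In edgeR's fit across all features, the log2 fold change at week 18 vs. pre-treatment was 1.27 (SE 0.57) for *CHIT1* and 0.73 (SE 0.39) for *TCN2*. With the animal as a block, the values were 1.33 (SE 0.26) and 0.70 (SE 0.14), so the standard errors shrank by more than the estimates moved. Ordered by the fold change without the block, *CHIT1* stood at place 4 from the top of 12880 and *TCN2* at place 69. As a description of the threshold behind the choice, 4 features lay inside it as higher in DESeq2 blocked by animal, namely *CHIT1*, *TCN2*, *MINAR1* and an unnamed gene. Neither *CHIT1* nor *TCN2* was among the calls of edgeR with or without the block when no covariate was added. The last 2 of the 4 had at most 4 and 3 reads in any library. The features next outside that threshold were an unnamed gene with a log2 fold change of 0.49 and *TMEM204* with 0.41, both in the DESeq2 fit with the block. In this comparison the mean changes were 1.20 (*CHIT1*) and 0.72 (*TCN2*) in the 3 animals of shared dates and 1.45 and 0.66 in the other 2. Every animal was higher, so any split of them gives positive means, and nothing is read from their sign.

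At week 12, when dosing was still under way, the animals were divided. The within-animal changes from pre-treatment were −0.01, −0.13, 0.58, 0.70 and 1.40 for *CHIT1*, in the order Z15228, Z13076, Z15339, Z15303 and Z15408. Those for *TCN2* were −0.06, −0.41, 0.44, 0.15 and 0.56. For each gene 3 of 5 animals were higher, and these were the same 3 animals, those of shared dates in the library names. The log2 fold change was 0.35 (SE 0.57, edgeR adjusted p = 1) for *CHIT1* and 0.04 (SE 0.39, edgeR adjusted p = 1) for *TCN2*, neither larger than its error. With the block the values were 0.49 (SE 0.27) and 0.14 (SE 0.14), each with an edgeR adjusted p of 0.982. By counting error alone, the fold differed from 1 in Z15303 and Z15408 for *CHIT1*, and for *TCN2* in Z15339 (1.36) and Z15408 (1.48) upward and in Z13076 (0.752) downward. This comparison shares the pre-treatment libraries with the one that chose the genes.

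From week 12 to week 18 the changes were 1.26, 1.79, 0.56, −0.16 and 0.51 for *CHIT1*, higher in 4 of 5 animals. Those for *TCN2* were 0.60, 1.20, 0.44, 0.46 and 0.10, higher in 5 of 5 animals, against 2.99% of all tested features. The largest differences were in Z15228 and Z13076, the 2 animals whose levels were not higher at week 12 than before treatment. The week 12 library enters both changes with opposite sign, and every animal was higher at week 18 than before treatment. An animal low at week 12 therefore tends to a larger later change by construction, and nothing is read from this pattern. The log2 fold change was 0.92 (SE 0.56) for *CHIT1* and 0.69 (SE 0.39) for *TCN2*, and 0.84 (SE 0.25) and 0.56 (SE 0.14) with the block, with an edgeR adjusted p of 1 in each of the 4 cases. The week 18 libraries here are those that chose the genes. Mean changes were 0.30 and 0.33 in the 3 animals of shared dates, for *CHIT1* and *TCN2*, and 1.52 and 0.90 in the other 2, so most of this difference came from Z15228 and Z13076, and whether the 2 sets of animals differ was not tested.

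**Figure D2:**
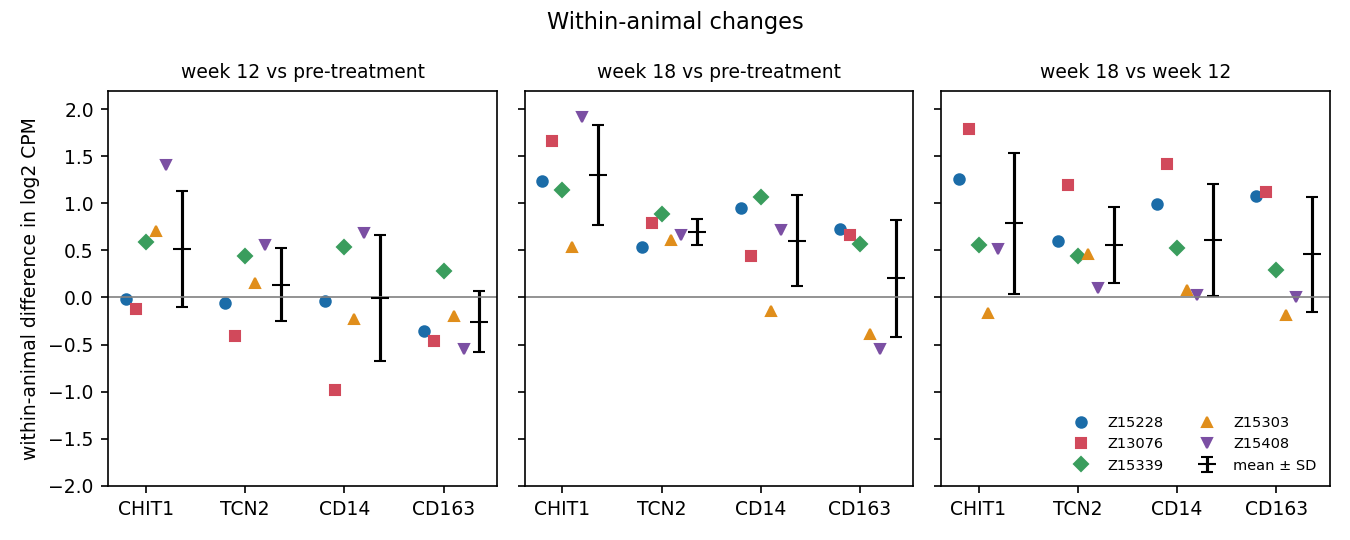
Within-animal differences in log2 CPM of *CHIT1*, *TCN2*, *CD14* and *CD163* for the 3 comparisons of time points, with one marker per animal and black bars for the mean ± SD of the 5 animals. At week 18 vs. pre-treatment all 5 animals lie above 0 for *CHIT1* and *TCN2*, 4 of 5 for *CD14* and 3 of 5 for *CD163*.

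The relation to the monocyte markers was followed first in their own levels. *CD14* had 569, 868, 237, 538 and 405 CPM before treatment, 552, 440, 345, 459 and 653 CPM at week 12, and 1104, 1177, 496, 486 and 664 CPM at week 18, in the same order of animals. Its within-animal change at week 18 vs. pre-treatment was 0.96, 0.44, 1.07, −0.15 and 0.71 (mean 0.61 ± 0.48, SD, n = 5), with a log2 fold change of 0.59 (SE 0.32, edgeR adjusted p = 1) and of 0.60 (SE 0.20, edgeR adjusted p = 0.589) with the block. *CD14* was therefore higher in 4 of 5 animals, and Z15303, the animal in which it was not, was also the one with the smallest change of *CHIT1*. *CD163* averaged 125 ± 45.8, 101 ± 21.1 and 146 ± 56.1 CPM (SD, n = 5) in the order of sampling, and its change at week 18 vs. pre-treatment averaged 0.21 ± 0.62 with 3 of 5 animals higher. The 2 monocyte markers parted in Z15408, where *CD14* was 1.64-fold and *CD163* 0.683-fold of its pre-treatment level at week 18.

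Across the 15 libraries, Pearson's r of log2 CPM with *CD14* was 0.54 for *CHIT1* and 0.69 for *TCN2* (Spearman's rho 0.54 and 0.58). With *CD163* it was −0.07 for *CHIT1* and 0.65 for *TCN2* (rho −0.14 and 0.58). The 15 libraries come from 5 animals and share the scaling and the animals' own levels, so these values are descriptions and carry no p. Of the 12879 other tested features, 7.27% had an r with *CHIT1* at least as high as that of *CD14* and 0.652% an r with *TCN2* at least as high. Across libraries *TCN2* thus had a positive r with both monocyte markers and *CHIT1* with *CD14* only. Pearson's r of *CHIT1* with *CD163* was 0.32 without Z15408, the animal lowest in *CHIT1* and second highest in *CD163*, where rho was 0.05, and between −0.24 and −0.02 without any one of the others.

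After each animal's own mean was taken out, r with *CD14* was 0.83 for *CHIT1* and 0.88 for *TCN2* (rho 0.86 and 0.87). Only 33 of 12879 features (0.256%) followed *CHIT1* and 8 (0.0621%) followed *TCN2* at least as closely as *CD14* did. With *CD163* the centred r was 0.45 for *CHIT1* and 0.54 for *TCN2*, and 12.0% and 6.44% of the features reached those values. Both rested on single animals, with 0.18 and 0.25 without Z13076 and 0.84 and 0.77 without Z15408. Both genes were chosen for being higher at week 18, which by itself gives any other gene that was higher at week 18 a positive centred r with them. For the same reason the r of 0.91 between *CHIT1* and *TCN2* after centring is in part fixed by their choice, while across the 15 uncentred libraries it was 0.14, a value that 36.1% of features exceeded or equalled. That uncentred r was 0.32 without Z15228, 0.28 without Z13076, 0.07 without Z15339 and 0.06 without Z15408. Leaving out each animal in turn moved the centred r with *CD14* between 0.79 and 0.87 for *CHIT1* and between 0.85 and 0.96 for *TCN2*.

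**Figure D3:**
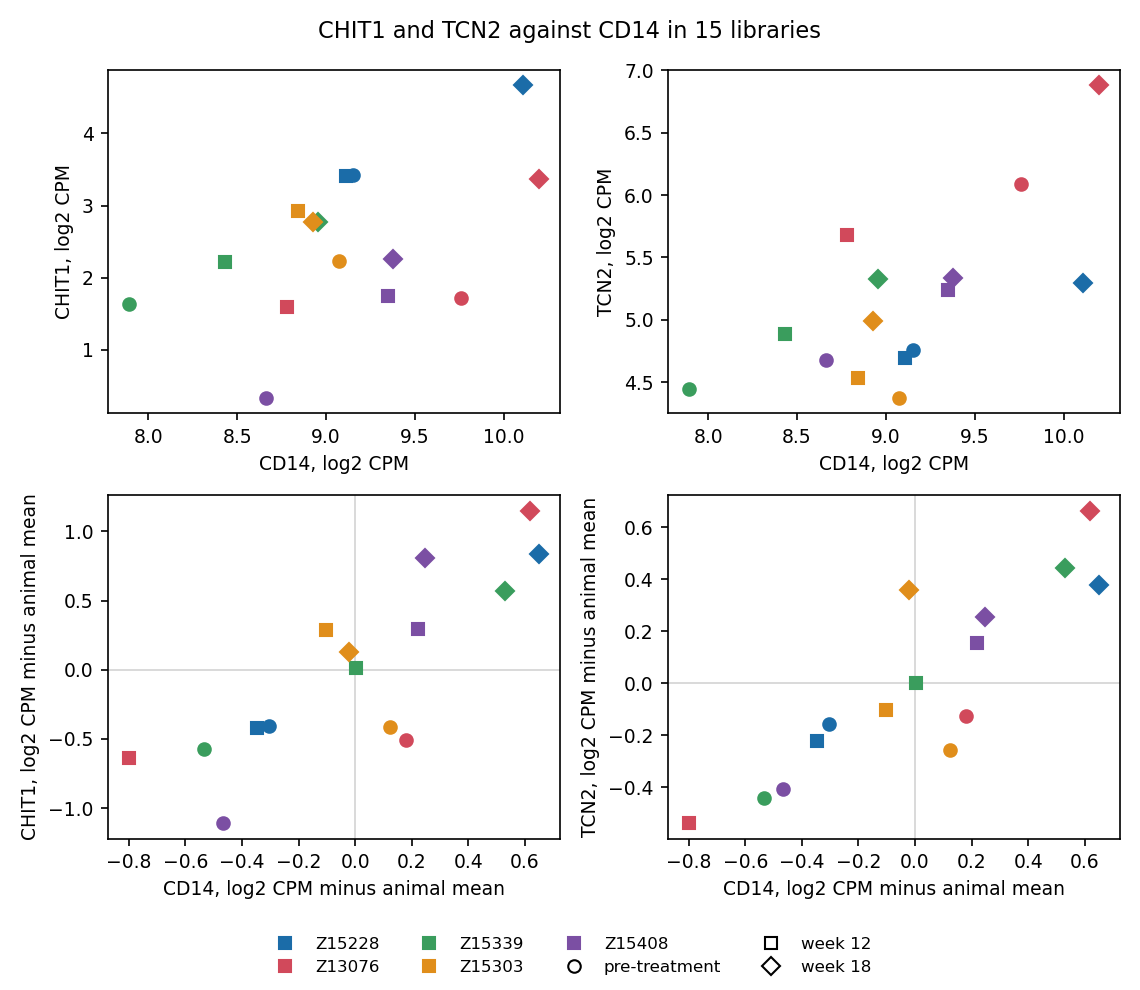
*CHIT1* (left) and *TCN2* (right) against *CD14* in 15 libraries, as log2 CPM (top) and after subtracting each animal's mean over its 3 libraries (bottom), with colours for animals and shapes for time points. In the top row the animals sit at different heights (r = 0.54 and 0.69), and in the bottom row the points draw together along a rising line (r = 0.83 and 0.88).

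The reads of both genes were also set against the *CD14* reads in the same library. Per 1000 reads of *CD14* there were 18.4, 3.51, 12.1, 8.25 and 2.54 reads of *CHIT1* before treatment, 18.8, 6.30, 12.8, 16.1 and 4.76 at week 12, and 22.8, 8.61, 13.3, 13.5 and 6.83 at week 18. This ratio was higher than before treatment in 5 of 5 animals at week 18, by 0.78 ± 0.58 on the log2 scale (SD, n = 5), and in 5 of 5 animals at week 12, by 0.57 ± 0.47. In Z15228 and Z15339 the differences were small, 0.31 and 0.14 at week 18. Since the rule chose *CHIT1* for its week 18 level, the week 18 ratio is a description, and the week 12 ratio shares its pre-treatment libraries.

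For *TCN2* there were 47.1, 78.3, 90.6, 38.2 and 62.6 reads per 1000 reads of *CD14* before treatment. At week 12 there were 46.4, 116, 84.9, 49.8 and 57.5, and at week 18 there were 35.3, 99.9, 80.3, 64.9 and 60.5. The ratio was higher at week 18 in 2 of 5 animals, Z13076 and Z15303, and lower in the other 3, with a mean log2 difference of 0.10 ± 0.47 (SD, n = 5), smaller than its spread. *TCN2* and *CD14* were thus higher by similar amounts on average, but not animal by animal, because in Z15303 *TCN2* was higher at week 18 by 0.62 while *CD14* was at −0.15. Relative to *CD163*, the week 18 difference was 1.18 ± 0.88 for *CHIT1* (5 of 5 animals) and 0.50 ± 0.60 for *TCN2* (4 of 5 animals).

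**Figure D4:**
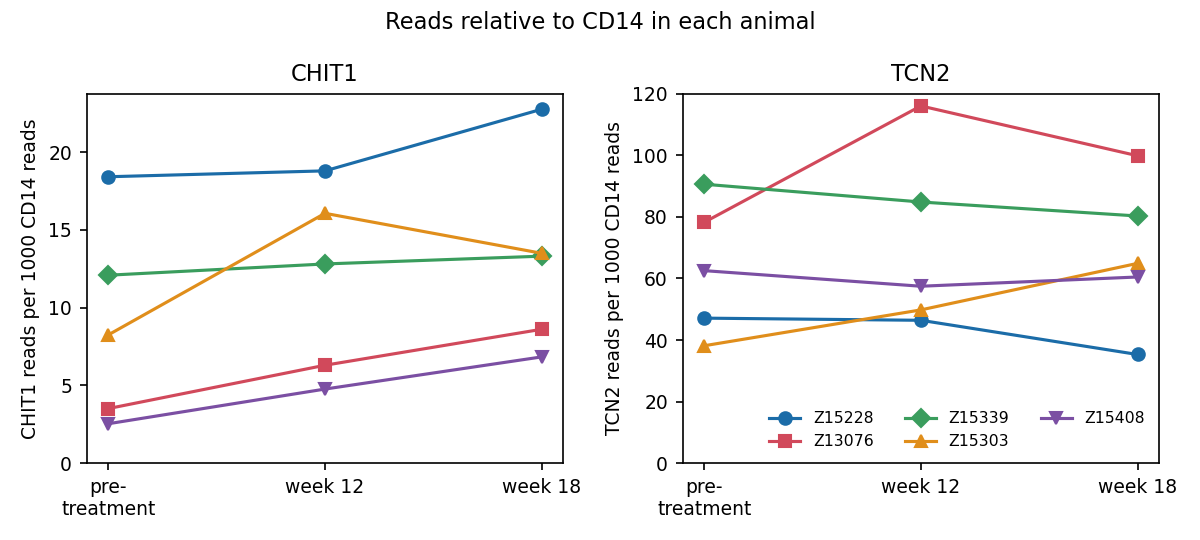
Reads of *CHIT1* (left) and *TCN2* (right) per 1000 reads of *CD14* in the same library, one line per animal over the 3 time points. The *CHIT1* ratio ends above its start in all 5 animals, by little in Z15339, while the *TCN2* ratio ends higher in 2 animals and lower in 3.

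The wider set of classical monocyte markers (the CD14-high monocytes that make up most of the monocytes in blood) had a positive median at week 18, below the value of *CD14* itself. Of 17 listed genes, 16 were tested, and 0 were called in any of the 3 comparisons by edgeR with or without the block or by DESeq2. In edgeR without the block, 2, 0 and 2 of them had an unadjusted p under 0.05, against 1.61%, 1.69% and 0.505% of all features. At week 18 vs. pre-treatment 13 of the 16 had a positive log2 fold change, where 6467 of the 12880 tested features did. In 5 of 5 animals 2 of the 16 were higher, where 3.04% of all features were. The median of the 16 was 0.22 against 0.00 over all features tested, from −0.31 for *CD93* to 0.78 for *S100A12*. That median was 0.12 without Z15228 and 0.47 without Z15408. At week 12 the median was −0.19 and 5 of 16 were positive, and from week 12 to week 18 the median was 0.35 and 16 of 16 were positive. Over all tested features, 6570 and 6301 of 12880 were positive in these 2 comparisons. From week 12 to week 18 the mean log2 CPM of the list was higher in only 3 of 5 animals. It differed by 0.75, 1.16 and 0.20 in Z15228, Z13076 and Z15339, and by −0.11 and −0.05 in Z15303 and Z15408. The mean log2 CPM of the list at week 18 vs. pre-treatment differed by 0.66, 0.59 and 0.46 in Z15228, Z13076 and Z15339, and by −0.15 and −0.20 in Z15303 and Z15408. The last 2 animals were higher in *CHIT1* and *TCN2* without being higher in the mean of this list. In Z15303, however, the counting interval of the *CHIT1* fold included 1 (0.919 to 2.37). *CD14* itself was 0.904-fold of its pre-treatment level in Z15303 and 1.64-fold in Z15408. The summed level of the 16 genes ranged over 3405 to 5466 CPM before treatment, 3321 to 4958 at week 12 and 3832 to 7349 at week 18, with none of them at 0 in all libraries of a group.

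Within that list the centred r with *TCN2* was highest for *CD14* (0.88), *S100A12* (0.80) and *S100A9* (0.74), the latter pair being calcium-binding alarmins of myeloid cells. It was lowest for *CD93* (−0.10), *CSF1R* (0.21), the receptor for the macrophage growth factor CSF1, and *CLEC7A* (0.27), the beta-glucan receptor. For *CHIT1* the highest were *CD14* (0.83), *S100A12* (0.73) and *LYZ*, or lysozyme (0.67), and the lowest *CD93* (−0.17), *CLEC7A* (0.12) and *MNDA* (0.27). The medians over the 16 genes were 0.54 for *TCN2* and 0.45 for *CHIT1*, against −0.02 for each over all features. These medians are in part fixed by the choice of the pair for a higher week 18 level, since 13 of the 16 genes had a positive log2 fold change there. The S100 genes and lysozyme are made by neutrophils as well as by monocytes.

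Nonclassical monocyte markers, those of the CD16-high monocytes that patrol vessel walls, had a negative median at week 18. Of 10 tested genes, 0 were called by edgeR with or without the block or by DESeq2. At week 18 vs. pre-treatment 1 had an unadjusted p under 0.05 in edgeR, against 1.69% of all features. In that comparison 1 of the 10 (*VMO1*, 0.10) had a positive log2 fold change, against 6467 of 12880 features. The 10 genes had a median of −0.14 there, with *MS4A7* lowest at −0.47. Their centred r with *CHIT1* ran from −0.36 (*MTSS1*), −0.23 (*MS4A7*) and 0.02 (*C1QB*) up to 0.13 (*HES4*), 0.39 (*LST1*) and 0.48 (*VMO1*). With *TCN2* it ran from −0.41 (*MTSS1*), −0.22 (*MS4A7*) and −0.08 (*CX3CR1*) up to 0.29 (*TCF7L2*), 0.40 (*LST1*) and 0.48 (*VMO1*).

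When the mean log2 CPM of the classical monocyte list was added as a covariate beside the animal block, the log2 difference at week 18 vs. pre-treatment was 1.01 (SE 0.27) for *CHIT1* and 0.55 (SE 0.14) for *TCN2*, against 1.33 and 0.70 without it. With the nonclassical list as the covariate it was 1.61 (SE 0.25) and 0.81 (SE 0.12). Both genes were among the 8 features (0.0621%) that edgeR called in that fit, and nothing is read from this because the comparison chose them. From week 12 to week 18, the classical covariate lowered the values from 0.84 to 0.45 (SE 0.29) for *CHIT1* and from 0.56 to 0.35 (SE 0.16) for *TCN2*. These fits use the libraries that chose the genes, so the values are descriptions, and the part of monocytes in them was not tested.

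Macrophage and scavenger genes, among which chitotriosidase is usually counted, were mixed. Of the 15 tested, 0 were called by edgeR with or without the block or by DESeq2. At week 18 vs. pre-treatment 2 had an unadjusted p under 0.05 in edgeR, against 1.69% of all features. In that comparison 10 of the 15 had a positive log2 fold change, against 6467 of 12880 features, and the median was 0.22. The highest was *VSIG4* at 1.35 (SE 0.53, edgeR adjusted p = 1), a complement receptor of tissue macrophages, with 4 to 18 reads per library before treatment and 6 to 38 at week 18. The lowest was *MSR1*, the scavenger receptor A, at −0.77. *VSIG4* was also the gene of this list with the highest r with *CHIT1*, 0.81 across the 15 libraries and 0.80 after centring. Its own changes at week 18 vs. pre-treatment were 1.62, 1.42, 2.33, −0.15 and 0.38, higher in 4 of 5 animals. The 23 tested genes of the lysosomal hydrolase list belong to the compartment in which macrophages break down what they take up. Some of them, *GRN* included, are lysosomal proteins other than hydrolases. The list had a median of 0.04, between −0.36 for *CTSZ* and 0.24 for *GRN*. Of its genes 0 were called by edgeR or DESeq2 (0 also at an unadjusted p under 0.05 in edgeR).

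*CHIT1* was set beside its own family. Of 7 chitinases and chitinase-like proteins in the table, 4 passed the filter, namely *CHIT1*, *CHI3L2*, *CHID1* and *CTBS*, and 0 were called by edgeR in any comparison, with or without the block. Of the genes other than *CHIT1*, 0 were called by DESeq2 with the block and 0 had an unadjusted p under 0.05 in edgeR, and nothing is read from *CHIT1* against them because it was chosen for its week 18 difference. *CHI3L2*, a chitinase-like protein without enzyme activity, had 24.3 ± 3.96, 26.7 ± 4.04 and 26.7 ± 4.49 CPM (SD, n = 5) in the order of sampling, a log2 fold change of 0.14 (SE 0.15) at week 18 vs. pre-treatment. *CHID1* stood at 0.09 (SE 0.15), and *CTBS*, the lysosomal chitobiase, at −0.15 (SE 0.21). *CHIA*, the acidic chitinase and the other true chitinase of mammals, had 0 reads in all 15 libraries, and *OVGP1* had 1 to 9. *CHI3L1*, made like *CHIT1* by macrophages and neutrophils, had 49, 44 and 72 reads in Z15408 at the 3 times and 0 to 18 reads in the libraries of the other 4 animals, so it was set by 1 animal, the one with the least *CHIT1*.

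*TCN2* was set beside the genes of cobalamin transport and use. Of 23 listed genes, 21 were in the table and 18 were tested, and 0 were called by edgeR in any comparison, with or without the block, or reached an unadjusted p under 0.05 without it. DESeq2 with the block called 0 of the genes other than *TCN2*, which was itself chosen for its week 18 difference. At week 18 vs. pre-treatment 11 of the 18 had a positive log2 fold change, against 6467 of 12880 features. The median of the list was 0.03, or 0.01 over the 17 genes other than *TCN2*. Among the binding proteins, *TCN1* (haptocorrin, which neutrophils store) had 0 to 11 reads per library and *GIF* (gastric intrinsic factor) had 0 in all. *CD320*, the receptor that takes up transcobalamin, had 11.7 ± 3.10, 14.1 ± 1.82 and 14.8 ± 3.64 CPM (SD, n = 5), a log2 fold change of 0.35 (SE 0.20, edgeR adjusted p = 1) at week 18 with 4 of 5 animals higher. *LRP2*, the receptor that takes transcobalamin up in the kidney, had at most 3 reads.

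The genes of the steps after uptake had smaller values. *LMBRD1* and *ABCD4*, which release cobalamin from the lysosome, stood at −0.02 (SE 0.22) and 0.01 (SE 0.14) at week 18 vs. pre-treatment. *MMACHC*, which strips the upper ligand from cobalamin, was the lowest of the list at −0.26 (SE 0.33), and *MMADHC*, which directs it to its enzymes, stood at 0.14 (SE 0.10). The enzymes that use it, *MTR* (methionine synthase) and *MUT* (methylmalonyl-CoA mutase), stood at −0.15 (SE 0.20) and 0.01 (SE 0.17). *CLYBL*, a mitochondrial lyase whose loss is known to lower cobalamin, was the one gene of the list higher in 5 of 5 animals at week 12, by 0.52 (SE 0.25, edgeR adjusted p = 1), where 2.23% of all features were, and it was lower in 5 of 5 animals from week 12 to week 18, by −0.35 (SE 0.25, edgeR adjusted p = 1), where 2.87% of all features were. The 10 tested genes of the folate and methionine cycle, which meets the cobalamin pathway at methionine synthase, had a median of 0.00 at week 18, from −0.31 for *SLC19A1* to 0.46 for *FOLR2*, a folate receptor of macrophages.

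Genes whose pattern was most like that of *CHIT1* or *TCN2* were taken as the 5 named features with the highest r. Across the 15 libraries these were *TMEM9* (0.88), *MOSPD3* (0.88), *CST3* (0.85), *ZGRF1* (0.85) and *RNF166* (0.84) for *CHIT1*. *CST3*, or cystatin C, an inhibitor of cysteine proteases that is abundant in monocytes and dendritic cells, had a log2 fold change of 0.32 (SE 0.37) at week 18 vs. pre-treatment. For *TCN2* they were *CHPT1* (0.90), *RABIF* (0.85), *ADIRF* (0.84), *WDR55* (0.83) and *FCGR2A* (0.82), the last an Fc receptor for IgG on myeloid cells. The 2 sets share no gene.

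After centring within animals the most alike genes of *CHIT1* were *ASPSCR1* (0.92), *NEU1* (0.91), *SGSH* (0.91), *TCN2* (0.91) and *MRPL2* (0.90). *NEU1* and *SGSH* encode lysosomal enzymes, neuraminidase 1 and sulfamidase, and were higher at week 18 than before treatment in 5 of 5 animals by means of 0.30 ± 0.24 and 0.30 ± 0.17 (SD, n = 5). For *TCN2* they were *CEBPD* (0.93), *CAVIN3* (0.92), *RASSF4* (0.91), *MRPL2* (0.91) and *CHIT1* (0.91). *CEBPD*, a transcription factor of myeloid cells, averaged 155 ± 29.5, 181 ± 51.2 and 219 ± 20.0 CPM (SD, n = 5) in the order of sampling. It had a log2 fold change of 0.50 (SE 0.18, edgeR adjusted p = 1) at week 18 vs. pre-treatment. These genes share with *CHIT1* and *TCN2* the higher week 18 level for which the pair was chosen.

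**Figure D5:**
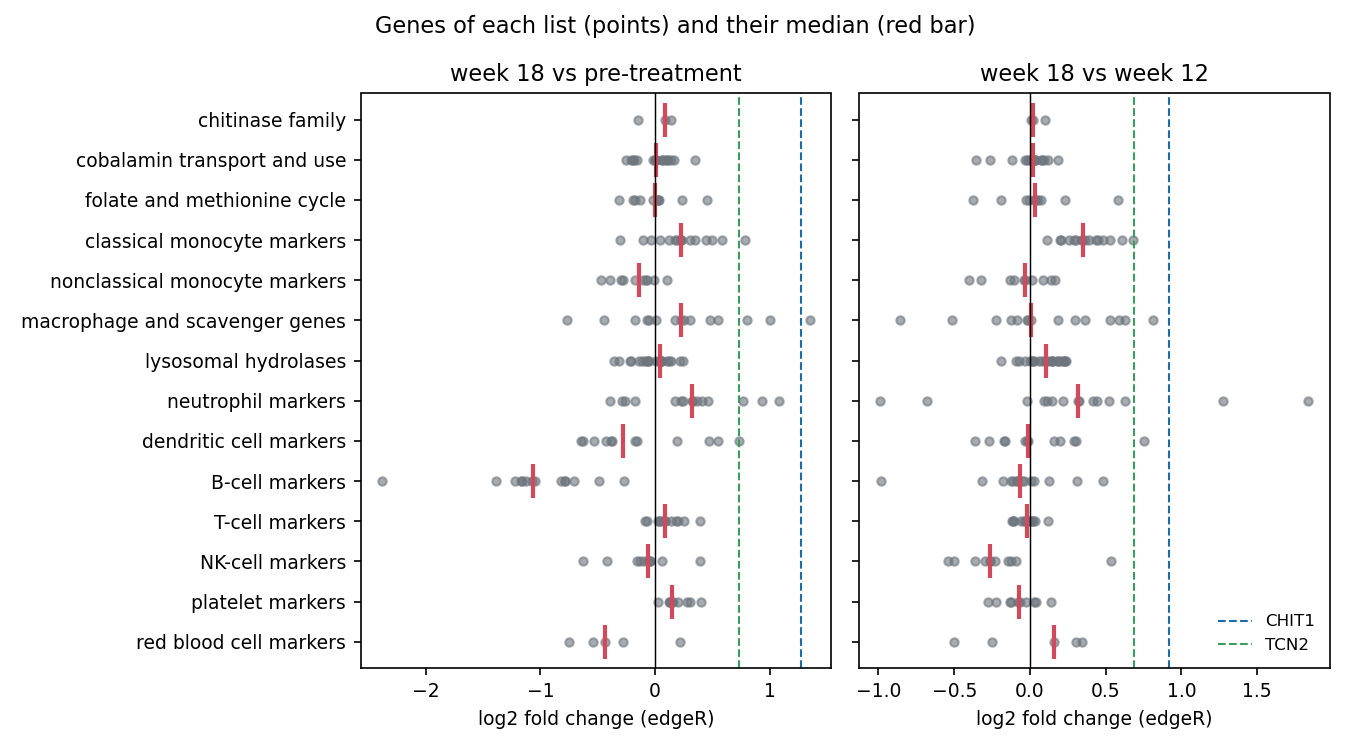
Log2 fold changes of the tested genes of 14 lists (grey points) with the list's median (red bar) at week 18 vs. pre-treatment (left) and at week 18 vs. week 12 (right), leaving out *CHIT1* and *TCN2*, whose own values are the dashed lines. The chitinase and cobalamin lists lie near 0, classical monocyte markers lie above 0 on the right (16 of 16), and B-cell markers lie below 0 on the left.

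Other cells of the PBMC fraction were followed because their share bears on any level in CPM. Neutrophil markers, whose granules hold chitotriosidase, were detected, with 15 tested of 22 listed and summed levels of 145 to 382 CPM before treatment, 118 to 558 at week 12 and 200 to 400 at week 18. Their median log2 fold change at week 18 vs. pre-treatment was 0.32, from −0.39 for *PRTN3* to 1.08 for *PGLYRP1*, and 0 were called by edgeR with or without the block or by DESeq2 (0 also at an unadjusted p under 0.05 in edgeR). By animal, the mean of the list moved by −0.76, 1.21, 1.02, −0.19 and 0.01, beside the changes of *CHIT1* given above, and its part in them was not tested. B-cell markers were lower, with a median of −1.06 over 14 tested genes, 12 of them lower in 5 of 5 animals where 3.49% of all features were, from −2.38 for *FCRL2* to −0.27 for *FCER2*. Of these 0 were called by edgeR with or without the block, and 7 had an unadjusted p under 0.05 in edgeR, against 1.69% of all features. DESeq2 with the block called 11 of the 16 listed genes as lower, against 0.227% of the features to which it gave an adjusted p. The medians of the T-cell, NK-cell, dendritic cell, platelet and red blood cell lists were 0.08, −0.06, −0.28, 0.15 and −0.44. The highest and lowest of these lists were *CD3E* (0.39) and *CD8A* (−0.09), *NCAM1* (0.39) and *NCR1* (−0.63), *CLEC10A* (0.73) and *CLEC9A* (−0.65), *GP1BB* (0.40) and *GP1BA* (0.02), and *SLC4A1* (0.22) and *CA1* (−0.75). The part of these cell types in the levels of *CHIT1* and *TCN2* was not tested.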

How the data were processed

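RNA from PBMCs of 5 macaques at 3 time points was amplified by SMART-Seq v4 and made into Nextera XT libraries, which do not keep the strand. The authors aligned reads with STAR 2.7.9a and deposited raw counts per gene. The values were checked to be whole numbers, and groups and animals were taken from the labels. In R 4.3.3, edgeR 4.0.16 (TMM, filterByExpr with a minimum count of 10, quasi-likelihood F test, 15 libraries, the time point as sole factor) was used with Benjamini-Hochberg adjustment at 0.05. The SE is |log2 fold change| over the root of F, and log2 CPM used a prior count of 2. Within-animal changes and correlations use log2 CPM, and read ratios use counts as deposited. Intervals of folds are exact conditional binomial intervals (95%).

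Each fit was repeated with the animal as a block. Same-animal libraries deviated together from their group means (mean r 0.551, lowest 0.351, over 15 pairs). The mean r of −0.137 over 60 pairs of other animals and times follows largely from taking out the group means, and nothing is read from it. The alternatives were the block, DESeq2 1.42.0, other size factors and filters, leaving out each animal in turn, and monocyte lists as covariates. The fits were tested on simulated data.

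The genes, the lists and the rule for named genes were chosen with earlier results of these data known. Named are *CHIT1*, *TCN2*, *CD14*, *CD163*, the 5 most alike genes by r on each scale, members of the chitinase and cobalamin lists, the 3 highest and 3 lowest monocyte genes by r with each of the 2 genes, and of other lists the genes with the highest and lowest fold change at week 18. Genes next to the threshold were named after their values were seen. *MUT* and *GIF* are the table's older symbols for the mutase and intrinsic factor. No sequences are shown.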

Additional observations from a re-analysis of the deposited data

Results flagged for a closer look

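Values were screened in groups of 5 animals, where the highest or lowest animal was set apart if its gap to the next took up more than Dixon's 95% share of the range. Of 42 groups examined, 8 were marked, all of them groups of CPM values. Dixon's share assumes independent, normally distributed values. Here the same animals recur at all 3 times and some genes had few reads, so no rate of marks by chance is given. Z15228 stood apart for *CHIT1* at week 18 (25.1 CPM), and Z13076 for *TCN2* before treatment (67.9 CPM) and at week 18 (118 CPM). Z15408 stood apart for *CHI3L1* at all 3 times, with 5.59 CPM before treatment, 4.41 CPM at week 12 and 7.97 CPM at week 18. *TCN1* was apart in Z15303 at week 12 (2.03 CPM, from 11 reads), and *CD320* in Z15339 at week 12 (17.3 CPM).

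At week 12 vs. pre-treatment the log2 changes were above 0 in the 3 animals of shared dates in the library names and below 0 in the other 2. The mean log2 change of *CHIT1* was 0.90 in the 3 animals of shared dates and −0.070 in the other 2, and that of *TCN2* was 0.39 and −0.24. In the other 2 animals the counting interval of the fold included 1 for *CHIT1* in both (0.991 and 0.909) and for *TCN2* in Z15228 (0.957), but not in Z13076 (0.752). The difference between these sets of animals was not tested.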

How the results depend on the processing

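The week 18 differences from pre-treatment kept their sign under every alternative run. Nothing is read from this, because these differences chose the genes and were positive in every animal. With each animal left out in turn they ranged from 1.18 to 1.41 (*CHIT1*) and from 0.68 to 0.76 (*TCN2*) without the block, and those from week 12 to week 18 from 0.67 to 1.15 and from 0.38 to 0.82. With the animal as a block and the classical monocyte list as a covariate, *TCN2* at week 18 vs. pre-treatment was 0.55. At week 12 the sign was not stable. *CHIT1* ranged from 0.25 to 0.62, and was −0.070 in the 2 animals with dates of their own. *TCN2* ranged from −0.085 without Z15408, with −0.034 without Z15339, to 0.29 without Z13076, and was −0.24 in those 2 animals.

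Counts of features called depended on the pairing, from 0 in the test without the block. At week 12 vs. pre-treatment they were 1 with the replicate block, 1 with DESeq2, 23 with DESeq2 and the block, 1 with the block and the classical list, and 0 to 6 with the block and an animal left out (6 without Z13076). At week 18 vs. pre-treatment they were 1 with the block, 51 with DESeq2 and the block, 8 with the block and the nonclassical list, and 0 to 17 with an animal left out (17 without Z13076, 3 without Z15408). At week 18 vs. week 12 DESeq2 with the block called 8. The causes were not tested.

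The r of *CHIT1* with *CD163* changed sign, to 0.45 when centred within animals and to 0.32 without Z15408. Centred, it was 0.30, 0.18, 0.39, 0.51 and 0.84 without Z15228, Z13076, Z15339, Z15303 and Z15408. That of *TCN2* with *CD163* was 0.46 without Z13076 and 0.83 without Z15408, and 0.25 and 0.77 when centred. Without Z13076 or Z15228 the median of classical monocyte markers from week 12 to week 18 was 0.17 or 0.19 rather than 0.35. At 9 reads, the lowest *CHIT1* count limits the fold of its animal, Z15408, to an interval of 2.12 to 10.3.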
